A study of Mus musculus with 24 samples.

Results

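Cytochromes P450 of families 1, 2 and 3 were examined in liver and hypothalamus of male ob/ob mice, an obese and diabetic strain that lacks leptin. Members were taken by name, as every gene whose symbol is Cyp1, Cyp2 or Cyp3 followed by a subfamily letter and a number, among the probe sets that the array annotation assigns to a single gene. The rule found 43 genes with 52 probe sets, of 18194 genes and 45101 probe sets in all. Family 1 held 3 genes, family 2 held 35 and family 3 held 5. There were 24 arrays, 3 in each group. In the regular arm, mice received γ-oryzanol, a component of rice bran, and their controls received its vehicle, methylcellulose. In the Nano-Orz arm, mice received γ-oryzanol encapsulated in polymer nanoparticles, and their controls received water. Every group consisted of ob/ob males on chow, treated by mouth for 4 weeks and sampled at 9 weeks of age. No dose is in the labels. According to the study's methods, representative mice were picked from each group for the arrays. They do not state whether liver and hypothalamus came from the same mice. Treated arrays are called Orz 1 to 3 and vehicle arrays Veh 1 to 3 within each arm and tissue.

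P450 enzymes of these families are haem proteins of the endoplasmic reticulum that oxidise drugs, steroids, fatty acids and other lipids, with electrons handed over by P450 oxidoreductase. Liver holds most of them. Several are switched on by receptors that sense foreign compounds and bile acids: family 1 by the aryl hydrocarbon receptor (AhR), the Cyp2b and some Cyp2c genes by the constitutive androstane receptor (CAR), and Cyp3a genes by the pregnane X receptor (PXR). In mice a further group, with Cyp2b9 and Cyp2b13 among it, is female-biased in adult liver, whereas Cyp2d9 is male-biased, under the control of growth hormone.

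The values are log2 signals from the distribution free weighted method (DFW), which draws the arrays of a comparison very close together. Over 6 arrays, 99.6% of all probe sets in liver of the regular arm and 99.1% in liver of the Nano-Orz arm spanned less than 0.001, as did 99.0% and 99.7% in hypothalamus of the regular and Nano-Orz arms. Differences, as treated minus vehicle, are therefore given in milliunits, where 1 milliunit is 0.001 of the log2 DFW signal, and they are not fold changes. A probe set was called higher or lower by rank product over the 9 treated and vehicle pairs, where the estimated proportion of false positives (pfp) among all probe sets was under 0.05. limma supplied standard errors (SE) and a second test, in which no probe set of the array passed an adjusted p of 0.05 in any of the 4 comparisons. With 3 arrays against 3, an exact permutation test cannot give a two-sided p below 0.1. In these tissue extracts, fewer cells of a type and less RNA per cell cannot be told apart.

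In liver the P450 signals covered nearly the whole scale of the array. Group means ran between 5.47 and 14.2 in the treated arrays of the regular arm and between 5.50 and 14.2 in those of the Nano-Orz arm. In hypothalamus they ended at 8.94 and 8.43 in treated arrays of the regular and Nano-Orz arms, and 31 and 34 of the 52 probe sets lay in the 25% of lowest mean signal, against 4 and 7 in liver. The tissue labels fitted their defining markers. Alb, the albumin gene, had vehicle means of 14.8 and 14.7 in the regular and Nano-Orz arms of liver and of 6.57 and 6.41 in those of hypothalamus, whereas Avp, the vasopressin gene, had 12.4 and 11.9 in hypothalamus and 6.79 and 6.46 in liver. The genes are spread over 8 chromosomes, with 11 on chromosome 19, where the Cyp2c cluster lies, 10 on chromosome 7 with the Cyp2a, Cyp2b and Cyp2f genes, 8 on chromosome 15 with the Cyp2d cluster, and 5 each on chromosomes 4 and 5, where the Cyp2j and Cyp3a clusters lie.

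Across the 4 comparisons 11 member probe sets were called, 2 higher and 9 lower. In liver of the regular arm 1 of 52 was called higher, where 0.182% of all probe sets were, and 0 lower, against 0.215% of all. In liver of the Nano-Orz arm 1 was called higher, against 0.297% of all, and 5 lower, against 0.184% of all. The 5 lower calls include 2 probe sets of Cyp2b10. In this arm 9 members (17.3%) were among the 1% of probe sets of widest range, so the share over all is not a like background for them. In hypothalamus of the regular arm 0 were called higher, against 0.166% of all, and 3 lower, against 0.395% of all. In hypothalamus of the Nano-Orz arm 0 were called higher, against 0.242% of all, and 1 lower, against 0.738% of all. Differences were positive for 35 of the 52 in liver of the regular arm, 25 in liver of the Nano-Orz arm, 15 in hypothalamus of the regular arm and 20 in hypothalamus of the Nano-Orz arm, beside 52.0%, 48.0%, 49.2% and 51.7% of all probe sets. By limma, at an unadjusted p under 0.05, 4, 0, 2 and 7 members passed in the same order, among 2067, 1959, 2563 and 2753 probe sets of the whole array.

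**Figure D1:**
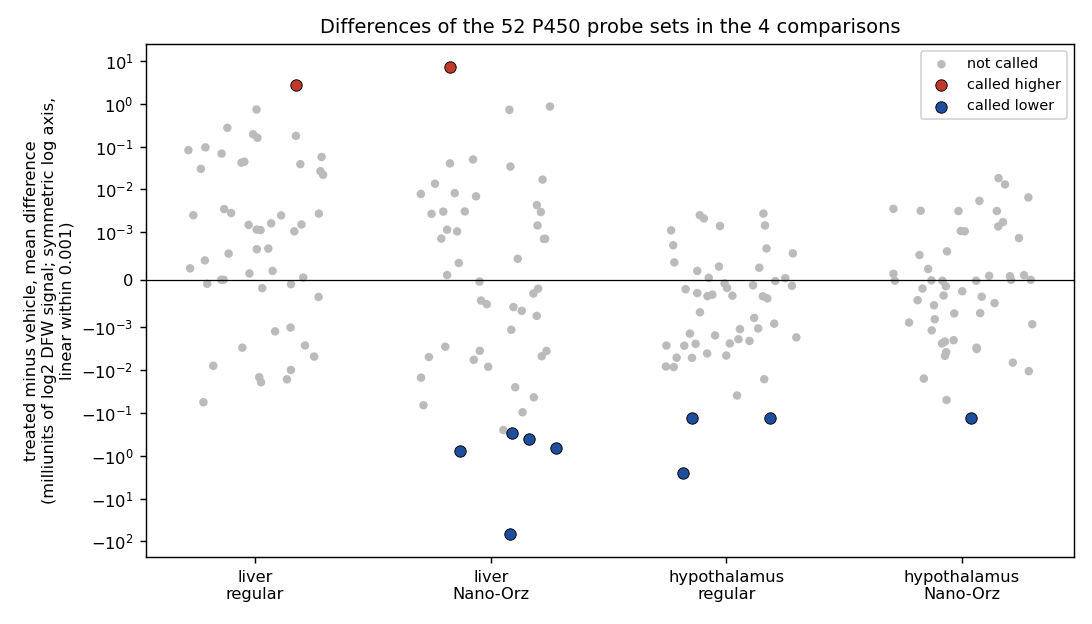
Mean difference between treated and vehicle arrays of each of the 52 P450 probe sets (points) in the 4 comparisons, in milliunits of log2 DFW signal on a symmetric log axis that is linear within 0.001. Red points were called higher and blue points lower by rank product. The lowest point is Cyp2b13 in liver of the Nano-Orz arm, at -67.4 milliunits.

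In liver of mice given Nano-Orz the called members lay mostly in the Cyp2b subfamily. Cyp2b13, Cyp2b9 and 2 of the 3 probe sets of Cyp2b10 were called lower, with Cyp2c37 beside them, and Cyp2d9 was called higher. No member of these 6 separated treated from vehicle arrays without overlap. All 6 lay among the 1% of probe sets of widest range in this arm, as did 9 member probe sets in all.

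Cyp2b13, a female-biased P450 of mouse liver, had the largest difference of any member. Its signals were 7.730, 7.757 and 7.812 in Nano-Orz arrays, against 7.829, 7.787 and 7.885 in water arrays. The treated arrays lay low, and Orz 3 was above Veh 2. The means were 7.766 ± 0.042 in Nano-Orz livers and 7.834 ± 0.049 in water livers (SD, n = 3 each), a difference of -67.4 milliunits (SE 34.6, pfp 0). The call held when any 1 array was left out, with a pfp up to 0.0025 and differences between -90.9 without Veh 2 and -41.7 without Veh 3. By limma the unadjusted p was 0.112.

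Cyp2b9, its close relative, had signals of 10.6657, 10.6663 and 10.6670 in Nano-Orz arrays, against 10.6672, 10.6659 and 10.6680 in water arrays. Veh 2 lay with the low treated arrays. The difference was -0.665 milliunits (SE 0.642, pfp 0.0309). After quantile normalization it was not called (-0.448, pfp 0.0919). The call ended without Orz 1, Veh 1 or Veh 3, with a pfp up to 0.650, and the difference ran between -1.21 without Veh 2 and -0.186 without Veh 3.

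Cyp2b10, the classical CAR target, was read by 3 probe sets. On the first, called probe set A here, it had 9.1006, 9.1033 and 9.1044 in Nano-Orz arrays, against 9.1053, 9.1048 and 9.0995 in water arrays. Veh 1 and Veh 2 were the highest arrays, whereas Veh 3 was the lowest of all 6. The difference was -0.400 milliunits (SE 2.01, pfp 0.0402). It turned to 0.671 without Orz 1, to 0.675 without Veh 1 and to 0.390 without Veh 2, and was -2.27 without Veh 3. The call ended without Orz 2, Veh 1 or Veh 2, with a pfp up to 0.657. Probe set B had 8.3427, 8.3447 and 8.3452 in Nano-Orz arrays, against 8.3457, 8.3460 and 8.3418 in water arrays, a difference of -0.294 milliunits (SE 1.43, pfp 0.0468). It turned positive without Orz 1, Veh 1 or Veh 2, up to 0.473, reached -1.65 without Veh 3, and the call ended without Orz 1, Orz 2, Veh 1 or Veh 2, with a pfp up to 0.629. Quantile normalization ended both calls (pfp 0.0711 for A and 0.104 for B). The third, probe set C, was not called and differed by -0.249 milliunits (SE 3.47).

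Cyp2c37, which hydroxylates arachidonic acid, had 11.1047, 11.1055 and 11.1047 in Nano-Orz arrays, against 11.1054, 11.1052 and 11.1065 in water arrays. Orz 2 lay among the vehicle arrays and Veh 3 above all others. The difference was -0.762 milliunits (SE 0.449, pfp 0.0273). After quantile normalization it was 0 (pfp 0.810). That method sets each signal by its rank on the array, and a probe set that keeps its rank gets 0. The 0 thus does not show that the signals were equal. The call held only without Orz 2; the pfp reached 0.608 without the others, and the difference ran between -1.04 without Orz 2 and -0.368 without Veh 3.

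Cyp2d9, a testosterone hydroxylase of male mouse liver, had 10.9246, 10.9320 and 10.9217 in Nano-Orz arrays, against 10.9201, 10.9268 and 10.9100 in water arrays. Orz 2 was the highest array and Veh 3 the lowest. The difference was 7.11 milliunits (SE 5.31, pfp 0). It was 2.64 without Veh 3, 4.17 without Orz 2 and 11.02 without Veh 2, and the call ended without Orz 2 (pfp 0.134).

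**Figure D2:**
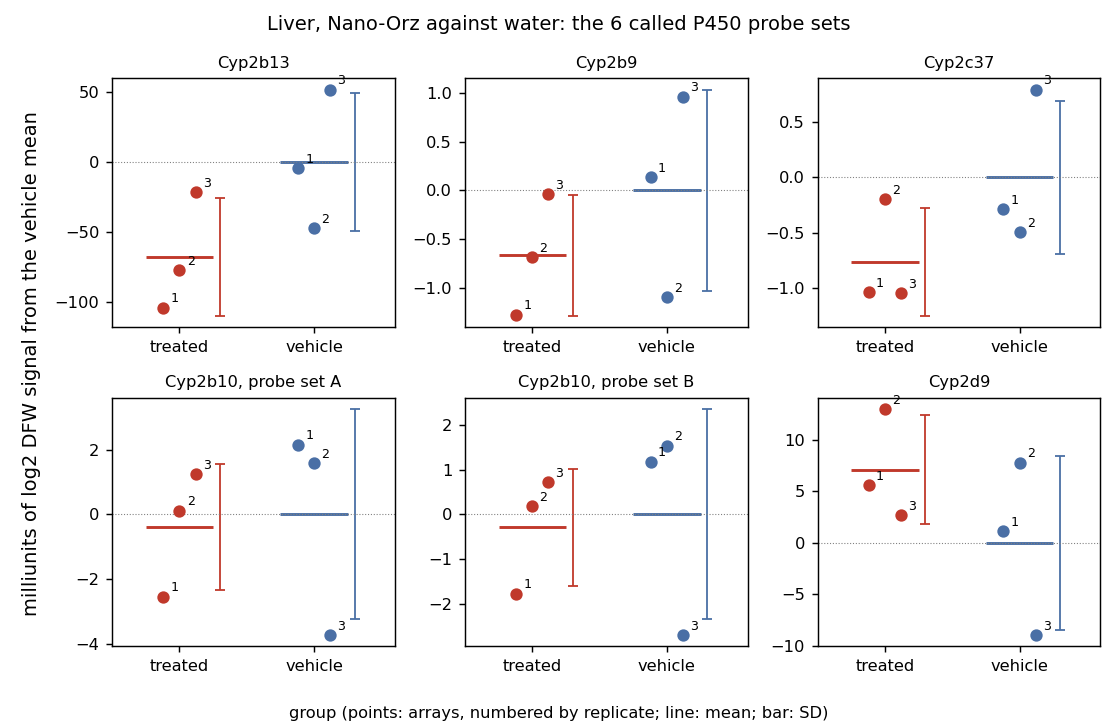
Signals of the 6 P450 probe sets called in liver of the Nano-Orz arm, in milliunits of log2 DFW signal from the vehicle mean, with its own vertical scale in each panel. Points are arrays with their replicate number, lines are means and bars are SDs (n = 3). Treated and vehicle points overlap in every panel, and Cyp2b10 is lowest in Veh 3, where Cyp2b13 and Cyp2b9 are highest.

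Cyp2b10 did not follow Cyp2b9 and Cyp2b13 array by array. Over the 6 liver arrays of the Nano-Orz arm, which were quantified together and include both groups, Pearson's r was 0.939 between Cyp2b9 and Cyp2b13. The probe sets of Cyp2b10 followed each other (r of 0.988 between the 2 that were called), with r of -0.132 and -0.193 to Cyp2b13 and -0.227 and -0.318 to Cyp2b9. Veh 3 was the highest array for Cyp2b9 and Cyp2b13 and the lowest for Cyp2b10. Cyp2d9 ran against both Cyp2b9 (r of -0.833) and Cyp2b13 (-0.859) and with Cyp2c54 (0.951). Among all probe sets the one most like Cyp2b9 was Abcd2, a peroxisomal transporter of long fatty acids (0.999), and Xpo5, which exports miRNA precursors, was among the first 5 (0.991). With so few arrays such values are common: 363 probe sets had r above 0.9 with Cyp2b9. All are given as descriptions.

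The upstream sequences of the 3 genes, on chromosome 7, are shown so that the 3 can be compared. Each line gives 143 bases of the plus strand, 5′ to 3′, from RefSeq on GRCm38.p6, at chr7:26173159-26173301 for Cyp2b9, chr7:26061245-26061387 for Cyp2b13 and chr7:25897408-25897550 for Cyp2b10. They run between 250 and 108 bases upstream of the transcript start that the promoter table uses. The annotated gene starts 59 bases before that start for Cyp2b9, 107 before it for Cyp2b13 and at it for Cyp2b10. Capitals mark the letters AGGTCA, the core site that nuclear receptors such as CAR, PXR and their partner RXR can bind.
Cyp2b9: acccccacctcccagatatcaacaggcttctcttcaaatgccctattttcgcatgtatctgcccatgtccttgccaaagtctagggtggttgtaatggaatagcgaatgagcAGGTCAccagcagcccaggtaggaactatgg
Cyp2b13: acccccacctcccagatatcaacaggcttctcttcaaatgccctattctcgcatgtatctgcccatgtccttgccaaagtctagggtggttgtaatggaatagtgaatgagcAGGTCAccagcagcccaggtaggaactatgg
Cyp2b10: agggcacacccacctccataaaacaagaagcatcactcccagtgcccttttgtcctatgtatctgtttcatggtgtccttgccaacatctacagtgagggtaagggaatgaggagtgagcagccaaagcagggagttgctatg
Over 250 bases upstream, Cyp2b9 and Cyp2b13 were identical at 248 positions and differed at 2 (99.2% identity). Each shared 182 of its aligned bases with Cyp2b10, with 58 mismatches and 20 gap columns (75.8% identity). The core site AGGTCA, searched on both strands, lay 138 to 133 bases upstream in Cyp2b9 and Cyp2b13, and its letters were not in the 250 bases of Cyp2b10. It was present in 14.02% of all 32851 RefSeq promoters of this length and in 11 of the 35 member genes that the table holds, Cyp3a11, Cyp3a25 and Cyp2c29 among them. GCGTG, the core that AhR can bind, was in 28.16% of promoters and in 6 of the 35 members, including Cyp1a1, Cyp1b1 and Cyp2b10. TTCNNNGAA, a STAT-type palindrome, was in 7.02% of promoters and in 1 member, Cyp2j11, and TATAAA was in 12.37% of promoters and in 17 members. Members were counted by gene, as holding the letters in any of their promoters, whereas the percentages count promoters, so the units differ. These matches are letters in a window of 250 bases, and no binding was measured. Sequence farther upstream was not searched, so the absence of AGGTCA from this window does not show that Cyp2b10 lacks such a site. Cyp2b9 and Cyp2b13 are close relatives, and whether a probe for one also binds RNA of the other was not tested. Of the 52 member probe sets, 4 carry an array suffix for probes shared between genes, those of Cyp2b10 on probe sets A and C among them, so single-gene attribution is uncertain for these.

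**Figure D3:**
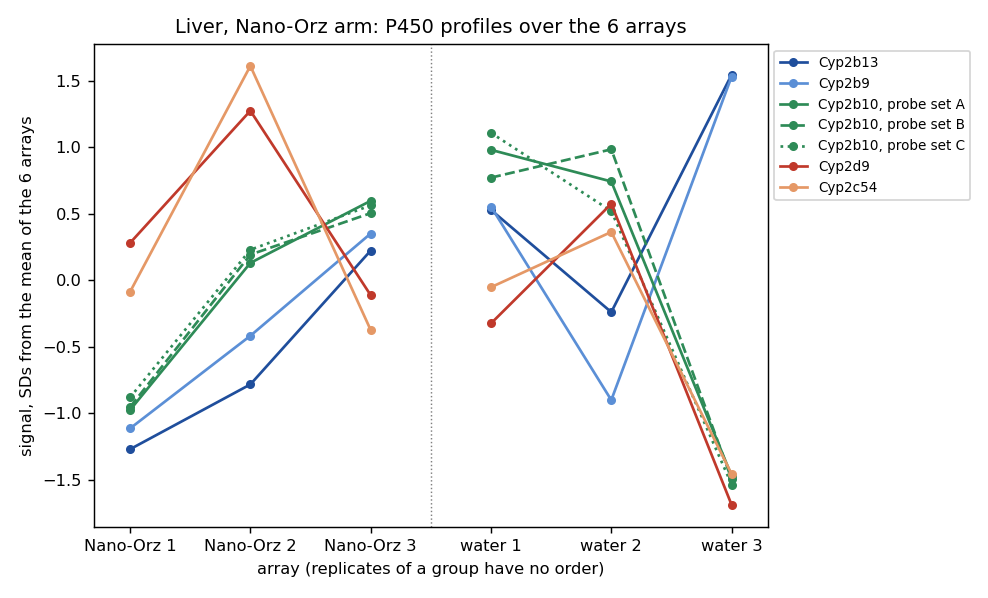
Signals of 7 P450 probe sets over the 6 liver arrays of the Nano-Orz arm, in SDs from each probe set's mean over these arrays. Nano-Orz arrays are on the left and water arrays on the right, and lines join the points of a probe set within a group. Cyp2b13 and Cyp2b9 (blue) peak in water 3, where the 3 Cyp2b10 probe sets (green), Cyp2d9 and Cyp2c54 (red and orange) are lowest.

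Without overlap between groups, 1 member lay above vehicle in liver of the Nano-Orz arm, where 4.34% of all probe sets did, and 0 below, where 4.67% did. That member, Cyp2d12, differed by 0.000441 milliunits, with treated arrays 0.000525, 0.000489 and 0.000308 above the vehicle mean and vehicle arrays at -0.000127, 0.000256 and -0.000130.

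Among the markers of the P450 set, Cyp2e1 and Cyp3a11 gave signals near the top of the scale. Cyp2e1, which oxidises ethanol and acetone around the central vein, had 14.04 in all 6 arrays, with a difference smaller than its SE of 0.000397 milliunits. Cyp3a11, the main PXR target, had 14.16 in all 6, with a difference of 0.00269 milliunits (SE 0.00209). Neither was called, and with DFW signals so closely drawn together this does not show that their transcripts were unchanged.

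Genes that serve or control these enzymes were described from lists. Of 11 electron transfer and haem genes (21 probe sets), 1 was called higher in liver of the Nano-Orz arm: Alas1, the first enzyme of haem synthesis, by 0.692 milliunits, a call that ended without any 1 treated array or Veh 3 (pfp up to 0.472). None of the 31 probe sets of the sensing receptors and their partners, CAR, PXR, AhR and RXR among them, was called in liver of either arm, with a median difference of 0.00146 milliunits in the Nano-Orz arm, beside -4.8e-05 over all probe sets. Of 23 probe sets of liver transcription factors, 2 were called lower. They were Bcl6, a repressor, at -0.501 milliunits, and Foxa3, a pioneer factor, at -0.512. The difference of Bcl6 ran between -6.91 and 2.79 when 1 array was left out, and its call ended in every such set except the one without Orz 2. The call of Foxa3 ended without any 1 vehicle array. Dbp, a clock output factor that binds P450 promoters, was called higher by 0.496 milliunits as the only call among 8 probe sets of its group, and the call ended without any 1 treated array or Veh 2. Of 40 probe sets for other CAR, PXR and AhR targets, 1 was called lower: Abcc4, an efflux transporter (-0.364 milliunits, ending without Orz 1 or any 1 vehicle array).

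A list of female-biased P450, which was drawn up with earlier results of these data in view and so is no independent evidence, had 7 probe sets of 5 genes. In liver of the Nano-Orz arm 4 of them, all Cyp2b, were called lower and 0 higher, with a median of -0.294 milliunits. In liver of the regular arm 0 were called and the median was 0.0959 milliunits. In both arms the median is the value of probe set B of Cyp2b10. Its difference in the Nano-Orz arm turned positive without Orz 1, Veh 1 or Veh 2. The medians therefore do not show that the listed genes moved in opposite directions in the arms. The zones of the liver were followed through their markers. In the Nano-Orz arm 0 of 10 pericentral probe sets and 1 of 7 periportal ones were called: Pck1, a gluconeogenic enzyme, higher by 9.56 milliunits (2.10 without Veh 3, where it was lowest; the call ended without Orz 2, Orz 3 or Veh 3). None of the 9 hepatocyte probe sets, of Alb, Apoa1, Apob, Fgb and Tat, and none of 16 probe sets for endothelial, Kupffer, stellate and bile duct cells was called.

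In liver of mice given regular γ-oryzanol 1 member was called, Cyp2c54, which oxidises arachidonic and linoleic acid. Its signals were 8.4902, 8.4704 and 8.4899 in treated arrays, against 8.4897, 8.4679 and 8.4847 in methylcellulose arrays. Orz 2 and Veh 2 were low, Orz 1, Orz 3 and Veh 1 lay close together, and Veh 3 lay between. The difference was 2.72 milliunits (SE 8.52, pfp 0.00286). It ran between -3.73 without Veh 2 and 9.26 without Orz 2, was -0.624 without Orz 1 and -0.488 without Orz 3, and the call ended without Orz 1, Orz 3 or Veh 2, with a pfp up to 0.193.

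The Cyp2b and Cyp2c37 probe sets that were called under Nano-Orz were not called here. Cyp2b13 had 10.6078, 10.6080 and 10.6073 in treated arrays, against 10.6056, 10.6080 and 10.6073 in methylcellulose arrays, a difference of 0.735 milliunits (SE 0.675) with Veh 1 as the lowest array. Cyp2b9 had 11.724153, 11.724110 and 11.724143 in treated arrays, against 11.724073, 11.724109 and 11.724098 in methylcellulose arrays. Its treated arrays all lay above its vehicle arrays, by 0.0422 milliunits on average (SE 0.0152). The 3 probe sets of Cyp2b10 differed by 0.0959, 0.161 and 0.195 milliunits, with SEs of 0.0945, 0.284 and 0.233. Cyp2c37 had 12.027969, 12.027515 and 12.027744 in treated arrays, against 12.027432, 12.027677 and 12.027586 in methylcellulose arrays, a difference of 0.178 milliunits (SE 0.137). Cyp2d9 differed by 0.275 milliunits (SE 0.459).

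Without overlap between groups, 3 members lay above vehicle, where 5.02% of all probe sets did, and 3 below, where 4.23% did. Those above were Cyp2b9, Cyp2c38 and Cyp2e1. Cyp2c38, an arachidonic acid oxidising enzyme, had 10.714766, 10.714769 and 10.714763 in treated arrays, against 10.714743, 10.714710 and 10.714728 in methylcellulose arrays, a difference of 0.0389 milliunits (SE 0.00871, limma adjusted p 1). Cyp2e1 stood 0.000500, 0.000370 and 0.00106 milliunits above the vehicle mean in treated arrays, and at -0.000270, 0.000210 and 6e-05 in methylcellulose arrays, around a signal of 14.05. Cyp3a11, at 14.18 in all 6 arrays, differed by -0.00036 milliunits (SE 0.000947). Those below were Cyp2c55, Cyp2j9 and Cyp2r1. Cyp2c55, which acts on arachidonic acid, had 8.326826, 8.326865 and 8.326853 in treated arrays, against 8.326926, 8.326886 and 8.326899 in methylcellulose arrays, a difference of -0.0561 milliunits (SE 0.0149). Cyp2j9 had 6.879729, 6.879744 and 6.879747 in treated arrays, against 6.879754, 6.879756 and 6.879768 in methylcellulose arrays. Cyp2r1, a vitamin D hydroxylase, stood at -0.00242, -0.00304 and -0.00248 milliunits from the vehicle mean in treated arrays, and at 0.00150, 0.000702 and -0.00220 in methylcellulose arrays. None of these 6 was called.

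Among the genes around the P450 in the regular arm, Papss2, which makes the sulfate donor for conjugation, was called higher (0.148 milliunits, ending without any 1 treated array or Veh 1), the only call among 40 probe sets of other CAR, PXR and AhR targets. Bcl6 was called lower at -0.978 milliunits, and its difference turned to 0.610 without Veh 2, while the call ended without Orz 3, Veh 1 or Veh 2. Of 10 pericentral probe sets, 1 was called higher, Slc1a2, a glutamate transporter (0.151 milliunits, ending in all sets but that without Veh 2). Of 16 for other liver cells, 1 was called lower, Lrat, the retinol esterifying enzyme of stellate cells (-1.39 milliunits, ending without any 1 vehicle array). No electron transfer, haem, receptor, clock output, periportal or hepatocyte probe set was called.

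The arms differ in preparation, vehicle and, by the study's methods and legends, dose, which cannot be told apart, and they share no arrays. The difference between their effects was tested by limma on all 12 liver arrays. Of the 52 members 0 passed an adjusted p of 0.05 and 3 had an unadjusted p under 0.05, among 2479 of all probe sets, and the lowest adjusted p of a member was 0.651. For Cyp2b13 the Nano-Orz effect minus the regular effect was -68.2 milliunits (SE 35.6, limma adjusted p 0.945). Its vehicle mean was 10.607 with methylcellulose but 7.834 with water, and the 6 arrays of each arm spanned 2.41 and 155 milliunits. The 2 effects were thus not on a like scale. The value and SE lie close to those under Nano-Orz alone (-67.4, SE 34.6), beside 0.735 (SE 0.675) under regular γ-oryzanol. For Cyp2c37 the same quantity was -0.940 (SE 0.484, limma adjusted p 0.936), for Cyp2b9 -0.707 (SE 0.661, limma adjusted p 0.986) and for Cyp2d9 6.84 (SE 5.49, limma adjusted p 0.981). Vehicle means also differed for Cyp2c37 (12.028 and 11.106) and Cyp2b9 (11.724 and 10.667). A difference between the preparations in liver was thus not shown for any member, and the width of these errors does not show that the preparations act alike.

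In hypothalamus of mice given regular γ-oryzanol 3 members were called lower: Cyp3a11, Cyp2e1 and Cyp2c29, which are abundant enzymes of hepatocytes. Their signals here lay far down the scale, with Cyp3a11 and Cyp2c29 in the 25% of lowest mean. All 3 separated treated from vehicle arrays.

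Cyp3a11 had 6.3212, 6.3218 and 6.3218 in treated arrays, against 6.3224, 6.3234 and 6.3265 in methylcellulose arrays. The treated arrays lay close together and Veh 3 stood highest. The difference was -2.49 milliunits (SE 1.14, pfp 0.00118). It ran between -3.33 without Veh 1 and -1.31 without Veh 3, and the call ended without Veh 3 (pfp 0.056). Cyp2e1 had 6.639846, 6.639861 and 6.639869 in treated arrays, against 6.639905, 6.639978 and 6.640095 in methylcellulose arrays, in the same order of vehicle arrays. The difference was -0.134 milliunits (SE 0.0518, pfp 0.0469), the lowest being -0.178 without Veh 1 and the highest -0.0824 without Veh 3, and the call held only without Orz 2 (pfp otherwise up to 0.360). Cyp2c29, which forms epoxides of arachidonic acid, had 6.301436, 6.301464 and 6.301395 in treated arrays, against 6.301528, 6.301575 and 6.301594 in methylcellulose arrays. The difference was -0.133 milliunits (SE 0.0259, pfp 0.0356), and this call too held only without Orz 2 (pfp otherwise up to 0.260). Quantile normalization ended the calls of Cyp2e1 (pfp 0.406) and Cyp2c29 (pfp 0.475).

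Of the hepatocyte markers, Alb, the gene of serum albumin, was called lower as well. Its signals stood at -54.0, -39.7 and -33.2 milliunits from the vehicle mean in treated arrays, and at -29.7, 0.373 and 29.3 in methylcellulose arrays, a difference of -42.3 milliunits (SE 16.8) that held without any 1 array (-57.1 without Veh 1 to -27.6 without Veh 3). Over the 6 arrays, which include both groups, Pearson's r with Alb was 0.967 for Cyp3a11, 0.985 for Cyp2e1 and 0.836 for Cyp2c29. Cyp3a11 and Cyp2e1 had r of 0.990 with each other. These probe sets were all called lower, and a difference between groups in the same direction by itself raises r. The other hepatocyte markers varied: with Cyp3a11, r was 0.813 to 0.960 for the 4 probe sets of Apoa1, 0.580 for Tat, 0.389 for Fgb, and 0.769 and -0.715 for the 2 of Apob. Of the 9 hepatocyte probe sets 1 was called lower and 8 had negative differences, with a median of -0.0494 milliunits, beside -1.5e-05 over all probe sets. The 4 probe sets of Apoa1, the main protein of high-density lipoprotein, differed by -0.0494 to -0.105 milliunits, whereas Fgb, Tat and 1 of the 2 Apob probe sets differed by -0.00215, -0.00194 and -0.00374, and the other by 0.00174. All 5 of these genes had signals between 5.92 and 7.13 in vehicle arrays. The part of hepatocyte or plasma-related RNA in the 3 P450 calls was not tested. Other marker calls in this comparison were Oxt, the oxytocin gene (1.03 milliunits higher), Ccdc153, an ependymal gene (0.114 higher), and 1 of the 4 probe sets of Ttr, a choroid plexus and liver gene (-1.22).

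**Figure D4:**
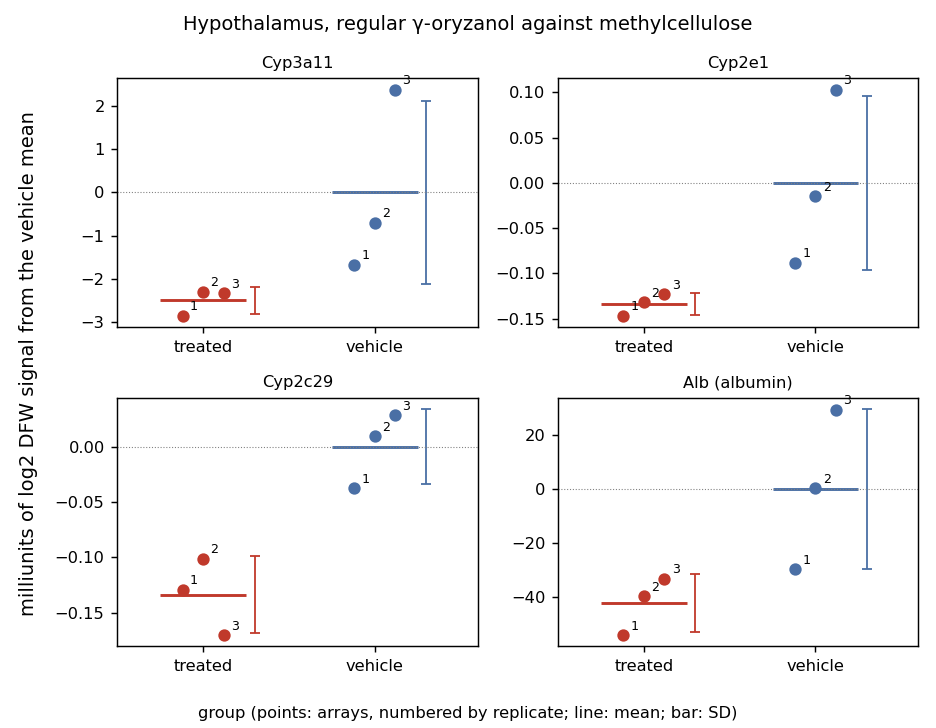
Signals of Cyp3a11, Cyp2e1, Cyp2c29 and the hepatocyte marker Alb in hypothalamus of the regular arm, in milliunits of log2 DFW signal from the vehicle mean, with its own vertical scale in each panel. Points are arrays with their replicate number, lines are means and bars are SDs (n = 3). All treated arrays lie below all vehicle arrays in the 4 panels, and Veh 3 is highest in each.

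Without overlap between groups, 6 members lay below vehicle in this comparison, where 5.04% of all probe sets did, and 1 above, where 5.87% did. Beside the 3 called ones, those below were Cyp2d26, Cyp2c70 and Cyp2j13. Cyp2d26 stood at -0.0208, -0.00996 and -0.0182 milliunits from the vehicle mean in treated arrays, and at -0.00521, -0.00454 and 0.00974 in methylcellulose arrays. Cyp2c70, which makes muricholic bile acids in mouse liver, stood at -0.00229, -0.00239 and -0.00261 in treated arrays, and at -0.000706, 0.00217 and -0.00146 in methylcellulose arrays. Cyp2j13 stood at -0.00122, -0.00132 and -0.000755 in treated arrays, and at 0.000367, -0.00068 and 0.000313 in methylcellulose arrays. The one above was probe set C of Cyp2b10, by 0.00111 milliunits, with treated arrays at 0.00111, 0.000497 and 0.00171 from the vehicle mean and methylcellulose arrays at 0.000234, 0.000112 and -0.000347. The Cyp2b9, Cyp2b13 and Cyp2c37 probe sets differed by -0.000923, -0.00511 and -0.00154 milliunits and were not called. Of the receptor list 1 of 31 probe sets was called lower, for Nr3c1, the glucocorticoid receptor (-0.623 milliunits, ending without any 1 vehicle array), and of the electron transfer list 0 of 21.

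In hypothalamus of mice given Nano-Orz 1 member was called, Cyp2f2, which oxidises naphthalene in the lung's club cells. It was also high in liver, with a vehicle mean of 13.4 in the regular arm. In hypothalamus its signals were 6.230835, 6.230929 and 6.230952 in treated arrays, against 6.230959, 6.231060 and 6.231083 in water arrays. The groups did not overlap, and Orz 3 and Veh 1 lay 0.007 milliunits apart. The difference was -0.129 milliunits (SE 0.0481, pfp 0.0114). It ran between -0.166 and -0.0934 when 1 array was left out, and the call ended without any 1 vehicle array, with a pfp up to 0.150, and after quantile normalization (pfp 0.222). This probe set also lay in the 25% of lowest mean signal.

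Markers of tissue next to the hypothalamus were also called in this comparison. Dcn and Col1a1, genes of fibroblasts, were called lower, by -6.10 and -0.108 milliunits on the called probe set of each. These probe sets had r of 0.796 and 0.886 to Cyp2f2 over the 6 arrays, which include both groups. The other probe set of Dcn had r of 0.268, and that of Col1a1 0.545. All 4 Ttr probe sets, Kl and Folr1, genes of the choroid plexus, were called lower too. The Ttr differences were -3242 to -3785 milliunits, with Veh 1 and Veh 2 high and Veh 3 among the treated arrays, and r to Cyp2f2 was 0.368 to 0.403. On the list for other cells near the hypothalamus, which does not hold Dcn and Col1a1, these 6 of 24 probe sets were called lower and 3, all of the pituitary gene Gh, higher, with mean differences below 0 for Gh. Of the hypothalamic peptide genes, Avp and Pomc were called lower. The part of these tissues, or of hepatocyte RNA, in the Cyp2f2 call was not tested.

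None of the markers of the P450 set was called in this comparison. Cyp3a11 had 6.0566 in all 6 arrays and differed by 7.43e-05 milliunits (SE 0.000471), and Cyp2e1 had 6.3607 and differed by -0.000429 milliunits (SE 0.000502). None of the 9 hepatocyte probe sets was called. Cyp2b9, Cyp2b13 and Cyp2c37 differed by -0.00215, -0.000135 and -1.67e-06 milliunits.

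Without overlap between groups, 5 members lay above vehicle, where 6.18% of all probe sets did, and 3 below, where 4.95% did. Those above were 1 of the probe sets of Cyp1b1, Cyp2c65, Cyp2c29, Cyp2j9 and Cyp3a25. Cyp1b1, which hydroxylates oestrogens and is the AhR-controlled member outside liver, had 5.917288, 5.917291 and 5.917294 in treated arrays, against 5.917276, 5.917263 and 5.917278 in water arrays, a difference of 0.0183 milliunits (SE 0.00468). The other probe sets of Cyp1b1 overlapped between groups. Their Nano-Orz effect minus the regular effect was -0.0519 and -0.0154 milliunits, against 0.0184 for the one without overlap. This quantity includes the effect in the regular arm and does not give the direction of these probe sets under Nano-Orz. Cyp2c65 had 5.809246, 5.809250 and 5.809258 in treated arrays, against 5.809232, 5.809243 and 5.809239 in water arrays. Cyp2c29 stood 0.00594, 0.00420 and 0.00602 milliunits above the vehicle mean in treated arrays, and at -0.00106, -0.000675 and 0.00173 in water arrays. Cyp2j9, an arachidonic acid enzyme of mouse brain, stood 0.00478, 0.00255 and 0.00218 above it in treated arrays, and at -0.000689, 0.00027 and 0.000418 in water arrays. Beside Cyp2f2, those below were Cyp2b19 and probe set B of Cyp2b10. Cyp2b19, an enzyme of keratinocytes, had 6.698372, 6.698369 and 6.698375 in treated arrays, against 6.698378, 6.698376 and 6.698377 in water arrays. Cyp2b10 on this probe set had 6.884928, 6.884932 and 6.884935 in treated arrays, against 6.884935, 6.884941 and 6.884939 in water arrays, a difference of -0.00666 milliunits (SE 0.00259). Among other CAR, PXR and AhR targets, both called probe sets of Tiparp, an AhR-induced ADP-ribosyltransferase, were higher (0.0535 and 0.0438 milliunits) and Gstm2, a glutathione transferase, was lower (-0.316). Each of these calls ended in 5 of the 6 sets that leave out 1 array. Foxa2, a pioneer factor, was called lower at -0.0614 milliunits, ending without any 1 vehicle array. No probe set of the electron transfer or receptor lists was called.

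On the 12 hypothalamus arrays the difference between the arms' effects passed an adjusted p of 0.05 in limma for 0 members, and 7 had an unadjusted p under 0.05, among 3099 of all probe sets. After quantile normalization 2 members passed, probe set C of Cyp2b10 (0.0849 milliunits, limma adjusted p 7.15e-05) and 1 probe set of Cyp2u1 (0.0733 milliunits, limma adjusted p 0.00553). On the deposited signals these differed by only 0.00538 (SE 0.00416) and -0.000619 milliunits (SE 0.00118). Quantile normalization sets signals by rank, so its values reflect shifts of rank and not the size of the deposited differences. The other probe set of Cyp2u1 did not pass after quantile normalization (limma adjusted p 0.950). The lowest limma adjusted p of a member on the deposited signals, 0.254, was that of Cyp2c29. Its effect under Nano-Orz minus that under regular γ-oryzanol was 0.139 milliunits (SE 0.0267). For Cyp3a11 the same quantity was 2.49 milliunits (SE 1.17, limma adjusted p 0.756), for Cyp2e1 0.133 (SE 0.0534, limma adjusted p 0.675) and for Cyp2f2 -0.126 (SE 0.0644, limma adjusted p 0.791).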

How the data were processed

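Liver and hypothalamus RNA was hybridised to 24 Affymetrix mouse arrays, which were grouped by the sample labels. The authors quantified the arrays with the DFW method, apparently within each tissue and arm. The deposited values are log2 signals and were used as they are, without filter or pseudocount. No probe-level intensities, background or detection calls were used. A further 4 tables, with 24 sample columns named by animal codes that no label maps, were not used. The array annotation gave 1 symbol to 34958 probe sets, several to 932 and none to 9211.

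Rank product was run within each comparison over all 9 pairs with 100 permutations of the values within arrays (pfp under 0.05). limma 3.58.1 in R 4.3.3 gave differences, SEs and Benjamini-Hochberg adjusted p over all probe sets, and tested the difference between arms. Both were run on simulated data with large shifts, for rank product with the same spread at every probe set. The real spreads are very unequal: in liver of the Nano-Orz arm members spanned between 0.00017 and 155 milliunits. The simulation therefore does not test whether the pfp holds on these arrays. Biopython 1.88 aligned promoters from RefSeq (GRCm38.p6), and Python 3.11.15, numpy 2.4.6, pandas 2.3.3 and matplotlib 3.10.9 were used. The members, gene lists, motifs and rules were chosen with earlier results of these data known. Per-array values are given for 6 marker genes, for every called member, and for up to 4 further members per comparison and direction with no overlap. Listed genes are named where they were called. Alternatives were limma, quantile normalization, removal of the 25% of probe sets with the lowest mean, a replicate block, a pfp under 0.01, leaving out each array, and 1000 permutations. Replicates are labelled biological. The number of arrays limits the precision.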

Additional observations from a re-analysis of the deposited data

Results flagged for a closer look

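In the regular arm Cyp2e1 moved in opposite directions in the tissues, with every treated array above every vehicle array in liver (0.000643 milliunits) and below in hypothalamus (-0.134 milliunits). The difference between tissues was not tested. Over the 6 liver arrays Cyp2e1 spanned 0.00133 milliunits, and 91.3% of probe sets spanned at least that.

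In hypothalamus Cyp2c29 moved in opposite directions in the arms without overlap in either, at -0.133 milliunits under regular γ-oryzanol and 0.00539 milliunits under Nano-Orz. By limma the difference between the arms was 0.139 milliunits (adjusted p 0.254).

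A probe set that matches both Cyp3a41a and Cyp3a41b, and so falls outside the rule for members, was called higher in liver of the regular arm, by 0.284 milliunits (pfp 0.0480). Its signals were 9.579468, 9.579889 and 9.579471 in treated arrays, against 9.579079, 9.579571 and 9.579324 in vehicle arrays. The call ended without 5 of the 6 arrays in turn, with differences between 0.144 and 0.407 milliunits. In the 3 other comparisons it differed by -0.00872, 0.00334 and 0.000724 milliunits and was not called.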

How the results depend on the processing

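By limma, 0 members were called in any comparison. Quantile normalization sets each signal by its rank, and a probe set that keeps its rank gets a difference of 0. With signals this close together, neither a kept nor a lost call after it settles whether a difference is real. Quantile normalization left 1 of the 5 lower calls in liver of the Nano-Orz arm, 1 of the 3 in hypothalamus of the regular arm and 0 in hypothalamus of the Nano-Orz arm. It kept 4 of the 11 called members (Cyp2c54, Cyp2d9, Cyp2b13 and Cyp3a11), and it gave 2 members past an adjusted p of 0.05 for the difference between arms in hypothalamus, Cyp2b10 (probe set C) and Cyp2u1, where the deposited signals gave 0. Without the 25% of lowest mean the lower calls were 3 in liver of the Nano-Orz arm, 0 in hypothalamus of the regular arm, where 2 of the 3 probe sets are themselves removed, and 0 in hypothalamus of the Nano-Orz arm, where the only one is removed. At a pfp under 0.01 they were 1, 1 and 0. Beyond such removal the cause was not tested. Leaving out 1 array in turn, calls in liver of the regular arm ran between 0 and 3 higher. In liver of the Nano-Orz arm they ran between 0 and 3 higher and between 1 and 5 lower. In hypothalamus they ran between 0 and 3 lower in the regular arm and between 0 and 2 lower in the Nano-Orz arm. Cyp2c54 ran between -3.73 and 9.26 milliunits, and Cyp2b10 between -2.27 and 0.675 (probe set A) and between -1.65 and 0.473 (probe set B). With 1000 permutations, chosen after seeing the data, all 11 calls were kept.

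Treated and vehicle arrays of a comparison share replicate numbers. Their same-number correlations were not above 0.1 for every pair in any comparison (Spearman's rho from -0.195 to 0.374), and the main comparisons leave the number out. In both hypothalamus arms, however, every treated array correlated best with its own number. These correlations do not settle whether same-number arrays share more than a number, and what they may share was not tested. With the replicate number as a replicate block, rank product called 3 members higher in liver of the regular arm and 2 lower in hypothalamus of the Nano-Orz arm, and Cyp2c37 and Cyp2b9 in liver of the Nano-Orz arm were not called (pfp 0.0760 and 0.0773).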
